A study of Mus musculus with 16 samples.

Results

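Glycolysis breaks glucose down to pyruvate, and the genes described here follow that route from the glucose transporters to the export of lactate, together with the hypoxia-inducible factors (HIF) that regulate many of its steps. The set was a list of 40 gene symbols, and a symbol was used where at least 10 reads were counted in 4 or more libraries. This kept 39 of the 40 genes, out of 52997 symbols in the count table and 13949 genes tested. Aldoc, an aldolase, held 11 reads over the 16 libraries and was left out. Of the 39 genes, 24 belong to glucose uptake, glycolysis and the lactate branch, and 15 encode HIF subunits, the enzymes that mark HIF for degradation, or further HIF targets.

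RNA was measured in mSC (mesenchymal stromal cells, which form the connective tissue between muscle fibres) of hindlimb skeletal muscle. The C57BL/6 mice, 8 weeks old, had been injected intraperitoneally with CGRP (calcitonin gene-related peptide, a neuropeptide of sensory nerves) or with phosphate-buffered saline (PBS), and cells were taken after 4 h or 8 h. Each of the 4 groups (PBS 4 h, CGRP 4 h, PBS 8 h and CGRP 8 h) had 4 replicates of 1000 cells sorted in succession, and the groups did not differ in strain, age or tissue. For the sorting gate, the CGRP dose and whether a replicate was 1 mouse or a pool, nothing is stated in the sources used here, so p-values measure the spread between these samples.

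In cells with oxygen, prolyl hydroxylases of the Egln family modify the HIF alpha subunits Hif1a and Epas1, and the Vhl ubiquitin ligase then has them degraded. When oxygen is low, the alpha subunits persist, pair with Arnt and bind promoters that hold the letters ACGTG or GCGTG, among them many genes of glycolysis. CGRP acts through a receptor that raises cAMP, which activates the factor CREB at the site TGACGTCA. Because oxygen acts mainly on the HIF proteins, RNA levels of the subunits do not measure HIF activity.

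The libraries held 6373713 to 10011920 reads, with 21138 to 25579 genes detected. All 9 mSC markers were present and summed to 139000 to 185000 CPM (read counts scaled to the library size by TMM, here and below), and this sum was lower in every CGRP library than in every PBS library of the same time. Most of the sum was Gsn, while Ly6a and Pdpn had higher means after CGRP at both times (Pdpn 431 and 953 CPM at 4 h, 335 and 856 CPM at 8 h). Markers of other cells were scarce: the sums were at most 333 CPM for 17 myofibre genes, 173 for 8 pericyte and smooth muscle genes, 26.6 for 11 myeloid genes and 2.28 for 8 lymphocyte genes. The endothelial sum of up to 144 CPM was mostly Tek, while Pecam1 and Cdh5 had group means of at most 1.16 and 0.258 CPM. The sum of 5 satellite cell genes reached 14.6 CPM and was mostly Chodl (group means of 2.04 to 7.11 CPM). Of these genes Myf5 had 0 reads in all libraries. Erythroid genes reached 47.6 CPM in single libraries. In bulk samples, fewer cells of a type and less RNA per cell cannot be told apart.

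Levels of the genes spanned more than 2 orders of magnitude on the scale of mean CPM per kilobase of exon over the 16 libraries. The aldolase gene Aldoa stood at 201, the lactate dehydrogenase gene Ldha at 176, the triose phosphate isomerase gene Tpi1 at 83.4, the collagen prolyl hydroxylase gene P4ha1 at 75.5 and the pyruvate kinase gene Pkm at 58.4. At the low end were the glucose transporter Slc2a3 (0.657) and the lactate exporter Slc16a3 (0.589). Hk2 (3.46 per kilobase) and Slc2a1 (2.77), whose differences after CGRP are given below, were in the lower part of this order, and Slc16a1 (8.91) was in its middle. The length is the union of all annotated exons, which understates the level of a gene with long rare isoforms.

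**Figure D1:**
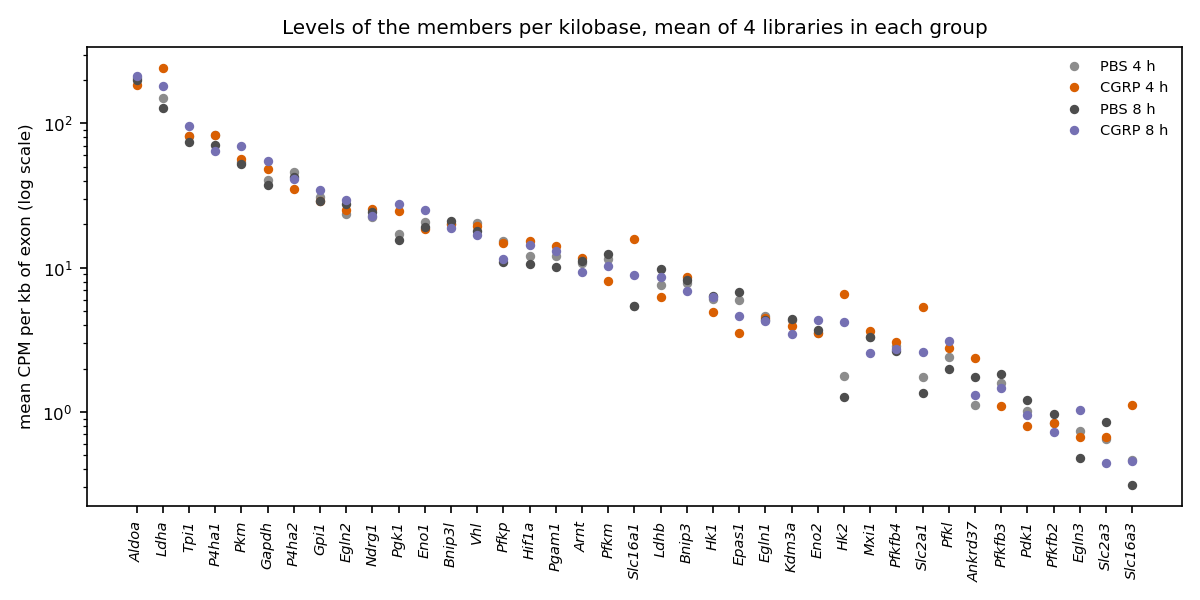
Mean CPM per kilobase of exon (log scale) of the 39 genes, ordered by their mean over all libraries; each point is the mean of 4 libraries of 1 group. Aldoa and Ldha stand at the top, and the 4 group means of Hk2, Slc2a1 and Slc16a1 lie farther apart than those of Aldoa.

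At 4 h after injection, the ends of the pathway were higher after CGRP. The glucose transporter Slc2a1, hexokinase Hk2, which traps glucose in the cell, lactate dehydrogenase Ldha and the lactate carriers Slc16a1 and Slc16a3 rose. Between these ends Gapdh and Pgk1 rose by less, and the phosphofructokinase gene Pfkm fell. Among the HIF genes, Epas1 (HIF-2 alpha) and the collagen prolyl hydroxylase P4ha2 fell and none rose. In all, 7 of the 39 genes rose and 3 fell (25.6% called, against 16.2% of the 13949 genes tested). Over all genes tested, 7.84% rose and 8.37% fell, so the count of falls was near the background. The median log2 fold change of the 39 genes was 0.01, beside -0.00 for all genes tested. All 7 rises were among the 24 glycolysis genes, with 1 fall. Of the 15 HIF genes 2 fell (13.3%), a share near the background, and 0 rose by edgeR (2 at an unadjusted p under 0.05, and 0 by DESeq2).

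Slc2a1 encodes the facilitative glucose transporter found in most tissues. Slc2a1 stood at 3.56, 7.80, 5.16 and 7.91 CPM in PBS replicates 1 to 4 and at 12.7, 18, 11.7 and 32.8 CPM in the CGRP replicates at 4 h. Every CGRP library lay above every PBS library, and CGRP replicate 4 was the highest. Slc2a1 rose by a log2 fold change of 1.60 ± 0.38 (SE, as for all fold changes below; edgeR, adjusted p = 0.00783). Slc2a3, a transporter with high affinity for glucose, had a log2 fold change of 0.06 ± 0.39 (adjusted p = 0.949).

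The rise with the greatest fold at 4 h among the 39 genes was that of Hk2, the inducible hexokinase that binds mitochondria. Hk2 stood at 6.98, 7.80, 16.4 and 11.1 CPM after PBS and at 26.2, 32.3, 32.3 and 66.9 CPM after CGRP. The groups did not overlap, and CGRP replicate 4 stood far above the other 3 CGRP libraries. The log2 fold change was 1.89 ± 0.35, which is 3.71-fold (adjusted p = 0.00174). Hk1, the constitutive hexokinase, had a log2 fold change of -0.31 ± 0.14 (adjusted p = 0.131).

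At the lactate end, Ldha, the muscle-type subunit that turns pyruvate into lactate, stood at 484, 522, 518 and 463 CPM after PBS and at 752, 829, 736 and 895 CPM after CGRP. The groups were well apart, and the spread within each was small. Ldha rose by 0.69 ± 0.12 (log2, adjusted p = 5.19e-04). Slc16a1, the proton-coupled carrier MCT1 for lactate and pyruvate, stood at 22.7, 19.9, 35.2 and 18 CPM after PBS and at 54.1, 72.6, 67.6 and 86.8 CPM after CGRP. All CGRP libraries again lay above all PBS libraries. Slc16a1 rose by 1.56 ± 0.26 (log2, adjusted p = 9.56e-04). Slc16a3, the lactate exporter MCT4 of highly glycolytic cells, stood at 3.13, 2.39, 2.32 and 2.08 CPM after PBS and at 2.54, 8.83, 6.03 and 6.38 CPM after CGRP. CGRP replicate 1 lay within the PBS range and the other 3 CGRP libraries lay above it. Slc16a3 rose by 1.26 ± 0.42 (log2, adjusted p = 0.0420). Its call was lost without any of CGRP 4 h replicates 2, 3 or 4 or PBS 4 h replicates 1, 2, 3 or 4 (adjusted p = 0.0536 to 0.147, log2 fold change 1.01 to 1.40). It was also lost with a replicate block and without the 4 libraries with most genes detected. Ldhb, the heart-type subunit (-0.30 on the log2 scale, adjusted p = 0.356), and Pdk1, a kinase that closes the entry of pyruvate into the mitochondrion (-0.36, adjusted p = 0.373), were not called.

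Of 6 genes of upper glycolysis at 4 h, edgeR called 0 rises (0 at an unadjusted p under 0.05, and 0 by DESeq2) and the fall of Pfkm. Of 6 genes of lower glycolysis 2 rose. Pfkm, the phosphofructokinase isoform that predominates in muscle fibres, stood at 39.5, 39.8, 28.0 and 45.7 CPM after PBS and at 19.8, 31.1, 32.9 and 23.8 CPM after CGRP. The groups overlapped through PBS replicate 3. Pfkm fell by 0.51 ± 0.15 on the log2 scale (adjusted p = 0.0255). The call was lost without any of CGRP 4 h replicates 1 or 4 or PBS 4 h replicates 1, 2 or 4 (adjusted p = 0.0620 to 0.121, log2 fold change -0.49 to -0.37). It was also lost with the 2 groups alone and without the 4 libraries with most genes detected. The summed myofibre markers were 169 to 250 CPM after PBS and 135 to 203 CPM after CGRP, with overlap and none of the 17 at 0 in all libraries, and their part in the fall of Pfkm was not tested.

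Pgk1, the phosphoglycerate kinase that makes ATP in lower glycolysis, stood at 35.1, 43.4, 38.7 and 35.5 CPM after PBS and at 53.6, 57.8, 45.0 and 64.0 CPM after CGRP. The groups did not overlap. Pgk1 rose by 0.53 ± 0.13 (log2, adjusted p = 0.00645). Gapdh, the dehydrogenase of the step before it, stood at 167, 179, 159 and 162 CPM after PBS and at 216, 172, 196 and 213 CPM after CGRP, where replicate 2 lay inside the PBS range. Gapdh rose by 0.26 ± 0.08 (log2, adjusted p = 0.0365). The call was lost without any of CGRP 4 h replicates 1 or 4 or PBS 4 h replicates 1, 3 or 4 (adjusted p = 0.0559 to 0.101, log2 fold change 0.23 to 0.27). It was also lost with no low-count filter, with a replicate block, with the 2 groups alone and without the 4 libraries with most genes detected. Gapdh counts are uncertain, since 85 near-identical pseudogene copies are annotated, and those in the table took 11% of the reads of gene and copies together. Among the regulators of phosphofructokinase, the bifunctional enzymes Pfkfb2, Pfkfb3 and Pfkfb4, edgeR called 0 (1 at an unadjusted p under 0.05, and 0 by DESeq2). Pfkfb4 stood at 11.7, 15.4, 12.8 and 16 CPM after PBS and at 16.2, 17.7, 10.4 and 14.9 CPM after CGRP at 4 h, with wide overlap.

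**Figure D2:**
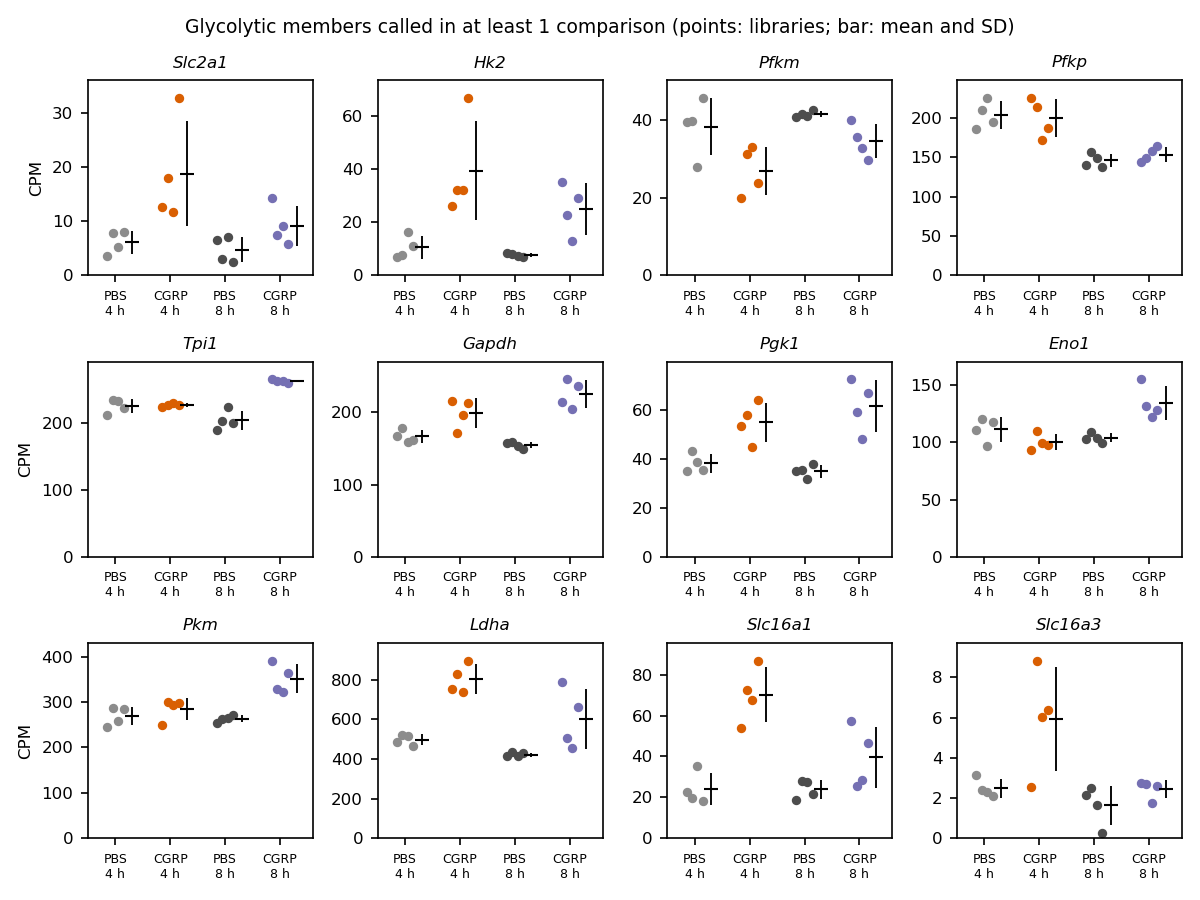
CPM of the 12 glycolytic genes called in at least 1 comparison, in each of the 16 libraries (points, in the order of replicates 1 to 4) with the mean and SD of each group (bars). Hk2, Slc2a1, Slc16a1, Ldha and Pgk1 are above all PBS libraries after CGRP at 4 h, while Tpi1, Eno1 and Pkm stand apart from PBS at 8 h alone.

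Promoters were read because 7 of the genes rose together at 4 h and many glycolysis genes are known HIF targets. RefSeq windows on GRCm38.p6, from 250 bases before to 50 bases after a transcript start, were at hand for 36 of the 40 listed genes. The letters ACGTG, on either strand, were present in 19.6% of the 32851 windows of all genes. Counted by gene, 29.1% of the 9989 tested genes with a window had a match, as did 7 of the 7 genes that rose at 4 h, 8 of the 10 that rose at 4 h or 8 h, and 15 of the 25 other tested genes of the list. Pfkm and P4ha2, which fell at 4 h, were among the others with a match, and Epas1 had no window. Tpi1 and Eno1, which rose at 8 h alone, had no match. The letters GCGTG, on either strand, were in 55.8% of tested genes with a window, in 4 of the 7 genes that rose at 4 h, in 5 of the 10 that rose at 4 h or 8 h and in 18 of the 25 other tested genes of the list. The full CREB site TGACGTCA was in 3.52% of those tested genes, and in the list only in Ldha and Arnt. The shorter letters TGACG, part of that site, were in 35% of those tested genes, in 3 of the 7 that rose at 4 h, in 4 of the 10 that rose at 4 h or 8 h and in 7 of the 25 others. Genes with several windows have more chance of a match, and no factor binding was measured. These 4 windows are shown for an enzyme of each end of the route, a lactate carrier and an ATP-making enzyme between them, with ACGTG or its reverse complement CACGT in capitals. Ldha lies on chr7:46845554-46845853 (forward strand), Pgk1 on chrX:106186850-106187149 (forward), Hk2 on chr6:82774405-82774704 (reverse) and Slc16a1 on chr3:104638414-104638713 (forward).
Ldha: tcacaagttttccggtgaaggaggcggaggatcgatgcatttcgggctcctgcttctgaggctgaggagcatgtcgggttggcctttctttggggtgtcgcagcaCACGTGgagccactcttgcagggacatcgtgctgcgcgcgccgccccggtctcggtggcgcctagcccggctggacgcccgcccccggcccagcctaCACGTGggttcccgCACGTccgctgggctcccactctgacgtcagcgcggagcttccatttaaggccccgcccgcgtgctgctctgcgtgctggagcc
Pgk1: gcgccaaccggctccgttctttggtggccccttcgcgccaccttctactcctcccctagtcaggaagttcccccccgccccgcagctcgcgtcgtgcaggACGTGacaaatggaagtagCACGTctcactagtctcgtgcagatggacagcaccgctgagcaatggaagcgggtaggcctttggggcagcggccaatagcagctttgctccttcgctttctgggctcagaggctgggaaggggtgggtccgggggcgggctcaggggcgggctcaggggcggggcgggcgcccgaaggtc
Hk2: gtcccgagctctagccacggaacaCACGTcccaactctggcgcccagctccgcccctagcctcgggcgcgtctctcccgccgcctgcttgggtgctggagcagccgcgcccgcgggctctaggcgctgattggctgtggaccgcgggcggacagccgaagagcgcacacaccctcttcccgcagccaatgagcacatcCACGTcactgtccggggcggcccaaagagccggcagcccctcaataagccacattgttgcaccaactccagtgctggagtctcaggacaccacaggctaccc
Slc16a1: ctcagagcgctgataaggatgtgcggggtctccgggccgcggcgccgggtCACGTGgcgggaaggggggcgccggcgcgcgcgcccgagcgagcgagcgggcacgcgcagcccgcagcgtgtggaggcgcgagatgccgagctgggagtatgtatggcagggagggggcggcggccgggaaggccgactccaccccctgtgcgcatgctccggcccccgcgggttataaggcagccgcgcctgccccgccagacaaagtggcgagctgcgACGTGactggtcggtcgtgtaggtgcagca
The Ldha window held 5 matches, the Slc16a1 window 3, and the Pgk1 and Hk2 windows 2 each, where the palindrome CACGTG counts on both strands. Another RefSeq window of Ldha held 0 matches and is not shown, since the window with the most ACGTG matches was chosen. Such a match describes the letters alone. In mm10 (GENCODE M21 annotation), Hk2 spans 82725025 to 82774454 on chromosome 6 (reverse strand), Ldha 46841475 to 46855627 on chromosome 7 (forward), Epas1 86753700 to 86833410 on chromosome 17 (forward) and Eno1 150236721 to 150248879 on chromosome 4 (forward).

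The HIF subunits did not move together at 4 h. Epas1, which encodes HIF-2 alpha, stood at 37.6, 30.6, 31.6 and 32.9 CPM after PBS and at 18.1, 12.6, 26.3 and 22.2 CPM after CGRP. All CGRP libraries lay below all PBS libraries. Epas1 fell by 0.75 ± 0.18 on the log2 scale (adjusted p = 0.00520), a call that held in all alternatives tried. Pericytes also express Epas1, and the summed markers of pericytes and smooth muscle were 71.5 to 138 CPM after PBS and 32.3 to 69.6 CPM after CGRP. None of the 8 was at 0 in all libraries, but most of that sum was Cspg4 (means 79.8 and 34.9 CPM), while the pericyte marker Rgs5 had means of 0.500 and 0.146 CPM. Not all markers of that list were lower: Kcnj8 had means of 4.26 CPM after PBS and 5.83 CPM after CGRP. The markers' part in the fall of Epas1 was not tested. Hif1a, which encodes HIF-1 alpha, stood at 78.5, 51.0, 85.1 and 67.9 CPM after PBS and at 80.8, 101, 85.1 and 96.7 CPM after CGRP, with overlap (log2 fold change 0.37 ± 0.14, adjusted p = 0.0903). Arnt, the partner subunit, had a log2 fold change of 0.12 ± 0.12 (adjusted p = 0.583).

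The enzymes that lead HIF to degradation, Egln1, Egln2, Egln3 and Vhl, gave 0 calls at 4 h by edgeR (0 at an unadjusted p under 0.05, and 0 by DESeq2), with log2 fold changes of -0.15 to 0.09. Egln2, the hydroxylase with the highest level of the 4 per kilobase, stood at 69.3, 41.6, 76.3 and 78.6 CPM after PBS and at 73.8, 74.7, 68.7 and 64.4 CPM after CGRP. Apart from the low PBS replicate 2, the libraries of both groups covered the same range. Of 8 other HIF targets only P4ha2, a subunit of collagen prolyl 4-hydroxylase, was called. P4ha2 stood at 280, 300, 265 and 302 CPM after PBS and at 240, 236, 200 and 194 CPM after CGRP. All CGRP libraries lay below all PBS libraries. P4ha2 fell by 0.40 ± 0.10 on the log2 scale (adjusted p = 0.00764). The call was lost when the 4 libraries with the most genes detected were left out together (log2 fold change -0.33, adjusted p = 0.0873). Ankrd37, a short ankyrin-repeat gene used as a marker of hypoxia, had the highest estimate of the 8, with 1.14, 1.46, 0.904 and 3.44 CPM after PBS and 2.34, 4.47, 4.90 and 2.93 CPM after CGRP. Its groups overlapped and the difference was not called (log2 fold change 1.04 ± 0.45, adjusted p = 0.123). The mitophagy receptors Bnip3 (0.15) and Bnip3l (0.01), the stress-response gene Ndrg1 (0.19), the histone demethylase Kdm3a (-0.14), Mxi1, a repressor that opposes Myc (0.14), and P4ha1 (-0.02) had the smaller log2 estimates given in parentheses and were not called.

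**Figure D3:**
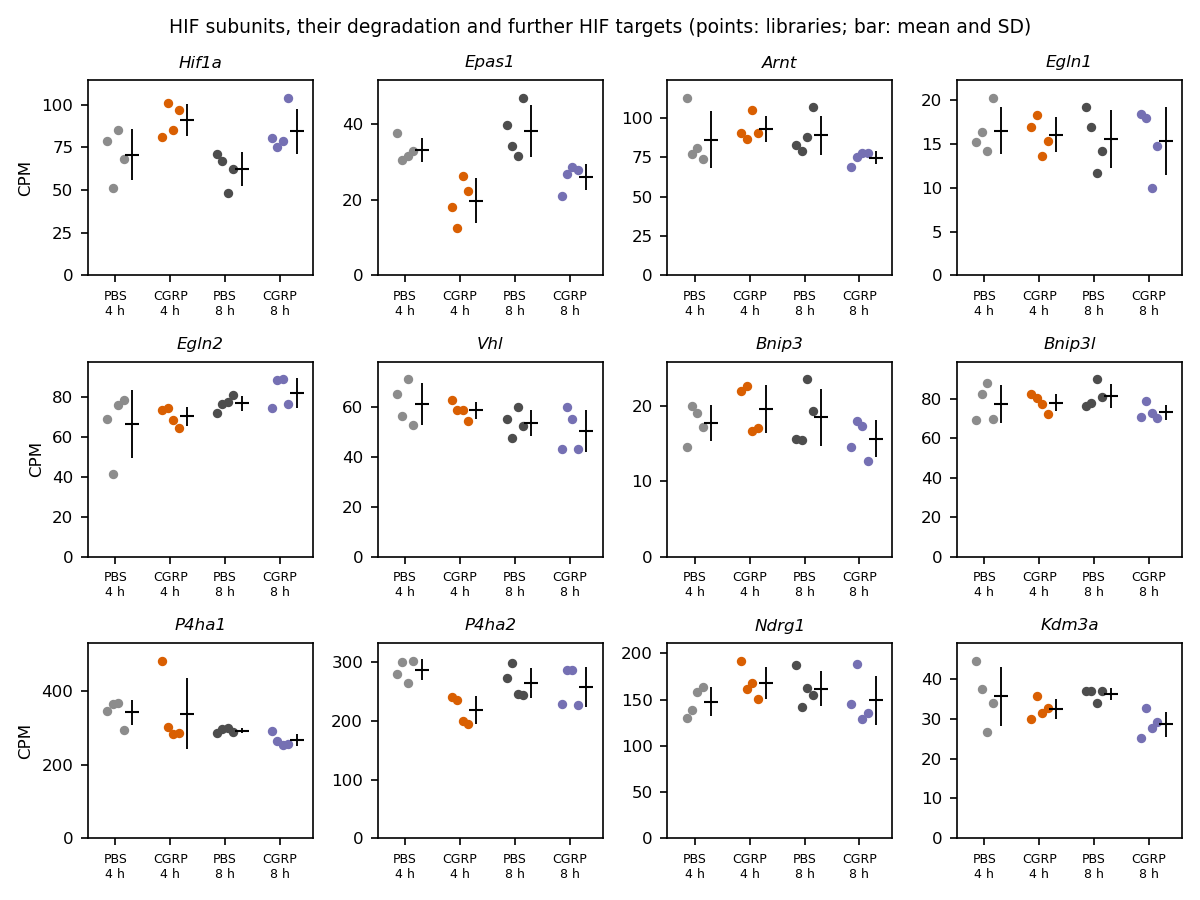
CPM of 12 of the 15 HIF genes in each library (points) with the mean and SD of each group (bars); Egln3, Ankrd37 and Mxi1 are not drawn. Epas1 is below PBS after CGRP at both times, with no overlap, while Egln1, Egln2 and Vhl overlap.

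At 8 h, the genes that rose after CGRP lay mainly in the lower part of the pathway. Hk2, Tpi1, Gapdh, Pgk1, Eno1, Pkm and Ldha rose, and Epas1 fell. These were 7 rises and 1 fall among the 39 genes (20.5% called, against 8.67% of all genes tested). Over all genes tested, 5% rose and 3.67% fell. The median log2 fold change was 0.06 over the 39 genes and 0.32 over the 24 glycolysis genes, beside -0.02 for all genes tested. Of 6 lower glycolysis genes 4 rose, and all 6 estimates were above 0 (median 0.40). When the 4 libraries with the most genes detected were left out, 2 genes, Gapdh and Pgk1, still rose and 0 fell, with 2 PBS libraries remaining at 8 h and 191 genes called over all genes, against 1210.

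Pgk1 stood at 34.9, 35.3, 31.7 and 37.9 CPM after PBS and at 72.6, 59.1, 48.2 and 66.8 CPM after CGRP at 8 h. The groups were far apart. Pgk1 rose by 0.82 ± 0.13 (log2, adjusted p = 5.15e-04). Gapdh stood at 157, 159, 154 and 149 CPM after PBS and at 215, 246, 205 and 236 CPM after CGRP. Every CGRP library was above every PBS library. Gapdh rose by 0.54 ± 0.08 (log2, adjusted p = 4.24e-04), and that call held in all alternatives tried. Pkm, which makes pyruvate and ATP in the last step of glycolysis, stood at 253, 262, 265 and 272 CPM after PBS and at 391, 329, 323 and 363 CPM after CGRP. Pkm rose by 0.42 ± 0.08 (log2, adjusted p = 0.00304), without overlap of the groups. The gene model Gm49759 covers 15.3% of the exonic bases of Pkm, so part of the Pkm reads may not be assigned to Pkm alone. Overlaps with another gene model were also annotated for Ankrd37 (22.7%), Bnip3 (22.3%), Pfkfb2 (17.4%), Gpi1 (11.5%), Pfkm (10.2%) and Pfkp (5.58%), among others.

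Eno1, the enolase of most tissues, stood at 103, 109, 104 and 99.7 CPM after PBS and at 155, 132, 122 and 128 CPM after CGRP. The groups did not overlap, and CGRP replicate 1 was the highest. Eno1 rose by 0.37 ± 0.09 (log2, adjusted p = 0.0128). Tpi1, which interconverts the triose phosphates made by aldolase, stood at 190, 202, 224 and 200 CPM after PBS and at 265, 262, 262 and 260 CPM after CGRP. The CGRP libraries lay within a few CPM of each other and above all PBS libraries. Tpi1 rose by 0.36 ± 0.07 (log2, adjusted p = 0.00271). Pfkl, the liver-type phosphofructokinase, had a higher estimate but more spread, with 9.92, 14.8, 10.5 and 17.5 CPM after PBS and 30.2, 20.3, 18.3 and 14.7 CPM after CGRP. Its groups overlapped, and it was not called (log2 fold change 0.67 ± 0.22, adjusted p = 0.0646; adjusted p = 0.0396 by DESeq2). The phosphoglycerate mutase Pgam1 (0.38 ± 0.13, adjusted p = 0.0808) and the glucose phosphate isomerase Gpi1 (0.27 ± 0.10, adjusted p = 0.0870) were not called either.

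Hk2 stood at 8.27, 8.05, 7.14 and 6.99 CPM after PBS and at 35.3, 22.6, 12.8 and 29.2 CPM after CGRP at 8 h. The CGRP libraries were spread widely but all lay above PBS. Hk2 rose by 1.71 ± 0.36 (log2, adjusted p = 0.00988). Ldha stood at 413, 433, 413 and 429 CPM after PBS and at 788, 505, 455 and 664 CPM after CGRP. Ldha rose by 0.51 ± 0.12 (log2, adjusted p = 0.0112), with no overlap. Without CGRP 8 h replicate 1 the calls of Ldha (log2 fold change 0.36, adjusted p = 0.0532) and Eno1 (0.30, adjusted p = 0.0669) were lost. That library was the highest of its group for 6 of the 7 genes that rose at 8 h, and replicate 3 was the lowest for 6 of the 7.

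The transporters were not called at 8 h. Slc2a1 stood at 6.49, 2.93, 6.99 and 2.55 CPM after PBS and at 14.3, 7.44, 9.06 and 5.81 CPM after CGRP (log2 fold change 0.96 ± 0.40, adjusted p = 0.158). CGRP replicate 4 lay within the PBS range. Slc16a1 stood at 18.7, 28.1, 27.5 and 21.5 CPM after PBS and at 57.3, 25.6, 28.6 and 46.6 CPM after CGRP (log2 fold change 0.72 ± 0.27, adjusted p = 0.111; adjusted p = 0.0292 by DESeq2). CGRP replicate 2 lay inside the PBS range, and replicates 1 and 4 were clearly above it. Slc16a3 stood at 2.16, 2.49, 1.67 and 0.269 CPM after PBS and at 2.73, 2.70, 1.77 and 2.60 CPM after CGRP (log2 fold change 0.57 ± 0.45, adjusted p = 0.506). Slc2a3 had a log2 fold change of -0.97 ± 0.40 (adjusted p = 0.145).

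Epas1 stood at 39.8, 34.3, 31.6 and 47.0 CPM after PBS and at 21.0, 26.7, 28.6 and 27.8 CPM after CGRP at 8 h. All CGRP libraries lay below all PBS libraries. Epas1 fell by 0.55 ± 0.17 on the log2 scale (adjusted p = 0.0466). The call was lost without any of CGRP 8 h replicates 1, 2, 3 or 4, PBS 4 h replicates 1, 2, 3 or 4, or PBS 8 h replicates 1, 2 or 4 (adjusted p = 0.0527 to 0.185, log2 fold change -0.60 to -0.43). It was also lost with a replicate block and without the 4 libraries with most genes detected. The pericyte and smooth muscle sum was 116 to 173 CPM after PBS and 99.6 to 133 CPM after CGRP at 8 h, with overlap, and its part in the fall was not tested. Its markers went both ways, with Cspg4, Abcc9, Notch3 and Higd1b lower in the mean after CGRP and Rgs5, Kcnj8, Acta2 and Myh11 higher. Hif1a stood at 71.2, 66.9, 48.5 and 62.1 CPM after PBS and at 80.2, 74.9, 78.4 and 104 CPM after CGRP. Every CGRP library lay above every PBS library, but edgeR did not call Hif1a (log2 fold change 0.44 ± 0.15, adjusted p = 0.0649; adjusted p = 0.0429 by DESeq2). Among all 15 HIF genes edgeR called 0 rises at 8 h (1 at an unadjusted p under 0.05, and 1, Hif1a, by DESeq2).

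The other HIF targets had log2 estimates of -0.43 to -0.04 at 8 h, below 0 for 8 of 8. EdgeR called 0 of them (2 falls at an unadjusted p under 0.05, and 0 by DESeq2). Kdm3a stood at 36.8, 37.0, 33.9 and 37.0 CPM after PBS and at 25.1, 32.6, 27.6 and 29.1 CPM after CGRP, without overlap (log2 fold change -0.34, adjusted p = 0.119). Mxi1 had a log2 fold change of -0.36 (adjusted p = 0.211). The degradation genes also gave 0 calls by edgeR at 8 h (0 at an unadjusted p under 0.05, and 0 by DESeq2). Egln2 stood at 72.1, 76.7, 77.6 and 81.3 CPM after PBS and at 74.8, 88.5, 89.0 and 76.5 CPM after CGRP, with overlap. Egln3, a hydroxylase that is itself induced in hypoxia, was near 2 CPM and had the widest error (log2 fold change 1.12 ± 0.55, adjusted p = 0.224).

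**Figure D4:**
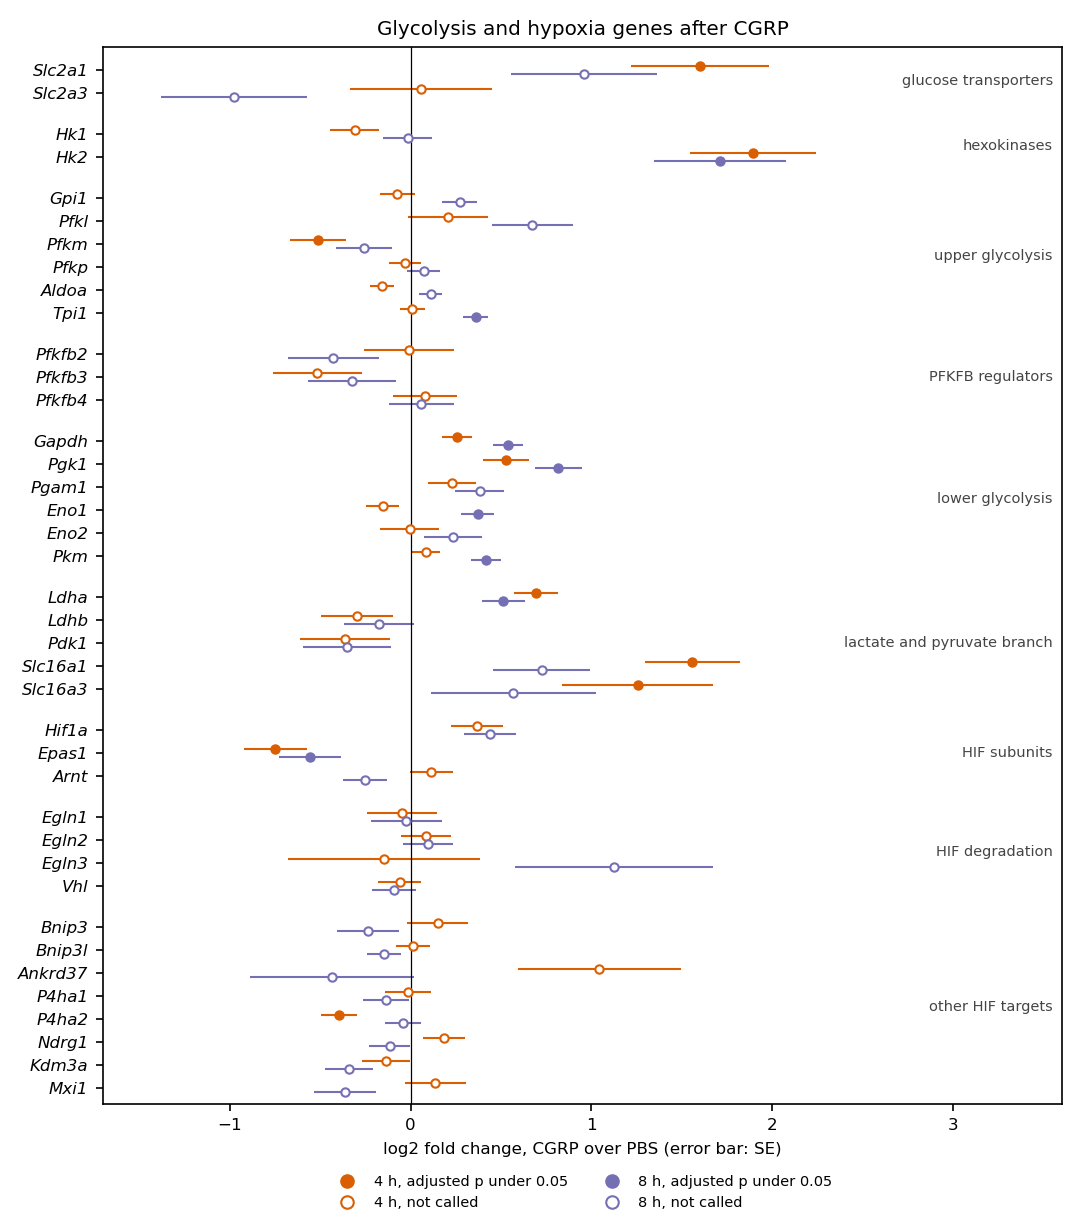
Log2 fold changes of CGRP over PBS at 4 h and at 8 h for the 39 genes by pathway step; bars are SE, and filled points have an adjusted p under 0.05 (edgeR). Hk2 is at 1.89 and 1.71, Epas1 at -0.75 and -0.55, and Eno1 moves from -0.15 at 4 h to 0.37 at 8 h.

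Counted without a model, all 4 CGRP libraries lay above all 4 PBS libraries for 5 of the 39 genes at 4 h and below them for 3 (background over all genes tested 8.95% above and 9.9% below). At 8 h the counts were 10 above and 4 below (background 8.08% and 6.75%). The 10 were Hk2, Aldoa, Tpi1, Gapdh, Pgk1, Pgam1, Eno1, Pkm, Ldha and Hif1a. The 4 below were Pfkm, Epas1, Arnt and Kdm3a. At 4 h Aldoa lay below PBS in all CGRP libraries, at 653, 691, 665 and 738 CPM against 745, 751, 759 and 807 CPM. At 8 h it lay above, at 833, 778, 785 and 785 CPM against 748, 727, 729 and 742 CPM. Neither difference was called (adjusted p = 0.111 at 4 h and 0.336 at 8 h).

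Whether the effect of CGRP differed between 8 h and 4 h was tested as the difference of both log2 fold changes. Of the 39 genes 1 was called, against 1.12% of all genes tested (0.695% with a positive difference). It was Eno1, with a difference of 0.53 ± 0.13 (log2, adjusted p = 0.0427). At 4 h Eno1 stood at 111, 120, 96.3 and 118 CPM after PBS and at 93.3, 110, 99.3 and 97.5 CPM after CGRP, with overlap (log2 fold change -0.15 ± 0.09, adjusted p = 0.278). The call of the difference was lost without any 1 of 13 of the 16 libraries, namely all but CGRP 4 h replicate 2, CGRP 8 h replicate 3 and PBS 4 h replicate 3 (adjusted p = 0.0542 to 0.105, difference 0.44 to 0.55). It was also lost with the filter of 10 reads in 4 libraries, with a replicate block and without the 4 libraries with most genes detected. All 6 upper and all 6 lower glycolysis genes had a difference above 0, with Tpi1 at 0.35 (adjusted p = 0.0811), Pkm at 0.34 (adjusted p = 0.164) and Aldoa at 0.27 (adjusted p = 0.163). These p-values are from edgeR, while DESeq2 called the differences of Tpi1 and Aldoa beside that of Eno1. The 5 transport, hexokinase and lactate genes that rose at 4 h had differences below 0, none called, and choosing them by their 4 h call favours that sign. Slc16a1 was at -0.83 ± 0.37 (adjusted p = 0.317), Slc2a1 at -0.64 ± 0.55 (adjusted p = 0.658), Slc16a3 at -0.69 ± 0.62 (adjusted p = 0.670), Hk2 at -0.18 ± 0.50 (adjusted p = 0.917) and Ldha at -0.18 ± 0.17 (adjusted p = 0.692). Hk1 and Ldhb of the same steps had differences above 0 (0.29 and 0.12), not called either. The difference for Epas1 was 0.19 ± 0.25 (adjusted p = 0.782). So the calls at 1 time alone do not show that the effects of these other genes differed in time. For Tpi1 and Aldoa the result of the difference depended on the method, and edgeR called Aldoa at neither time.

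Between times within a treatment, Pfkp, the platelet-type phosphofructokinase, was lower at 8 h than at 4 h both after PBS and after CGRP. Pfkp stood at 186, 211, 226 and 195 CPM at 4 h and at 141, 157, 149 and 138 CPM at 8 h after PBS. The times did not overlap. Pfkp fell by 0.48 ± 0.09 on the log2 scale after PBS (adjusted p = 0.0158) and was the only 1 of the 39 genes called there (0.516% of all genes tested were called, 0.251% of them as falls). That call was lost without any of PBS 4 h replicates 2 or 3 or PBS 8 h replicates 1 or 4 (adjusted p = 0.0517 to 0.0716, log2 fold change -0.47 to -0.43). After CGRP, Pfkp stood at 226, 214, 172 and 188 CPM at 4 h and at 144, 149, 158 and 164 CPM at 8 h. It fell by 0.38 ± 0.09 (log2, adjusted p = 0.0106), again without overlap.

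After CGRP, 2 genes rose and 2 fell from 4 h to 8 h (7.26% of all genes tested were called, 4.2% as rises and 3.05% as falls). Eno1 rose by 0.42 ± 0.09 (log2, adjusted p = 0.00481), and Pkm rose by 0.30 ± 0.08 (log2, adjusted p = 0.0261). Pkm stood at 250, 301, 293 and 297 CPM after CGRP at 4 h, all below the 8 h values given above, and at 245, 288, 259 and 285 CPM after PBS at 4 h. The Pkm call was lost without any of CGRP 4 h replicate 1 or CGRP 8 h replicates 1 or 4 (adjusted p = 0.0681 to 0.116, log2 fold change 0.24 to 0.29). It was also lost with the 2 groups alone and without the 4 libraries with most genes detected. Ldha fell by 0.41 ± 0.12 on the log2 scale (adjusted p = 0.0392), with the times overlapping through CGRP 8 h replicate 1. The Ldha call was lost without any 1 of 12 of the 16 libraries, namely all but CGRP 8 h replicate 1, PBS 4 h replicates 2 and 4 and PBS 8 h replicate 4 (adjusted p = 0.0531 to 0.168, log2 fold change -0.46 to -0.29). It was also lost with the filter of 10 reads in 4 libraries, with the 2 groups alone and without the 4 libraries with most genes detected.

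Where several genes encode the same step, their shares of the summed level per kilobase were compared as a description without a test. Hk2 made up 22.4% ± 8.34 of hexokinase RNA (Hk1 and Hk2, SD, n = 4) after PBS and 55.5% ± 9.79 after CGRP at 4 h, and 17.1% ± 4.21 and 38.9% ± 11.0 at 8 h. The Hk2 share was higher in each CGRP library than in each PBS library at both times. Epas1 made up 33.6% ± 4.33 of the alpha subunit RNA (Hif1a and Epas1) after PBS and 18.7% ± 5.34 after CGRP at 4 h, and 39.3% ± 4.13 and 24.7% ± 3.34 at 8 h. Here the CGRP libraries were all below the PBS libraries at both times. Ldha made up most of the lactate dehydrogenase RNA in all groups, with 95.1% ± 1.13 after PBS and 97.5% ± 0.418 after CGRP at 4 h. The Pfkm share of phosphofructokinase RNA was 49.1% ± 1.41 after PBS and 41.4% ± 2.61 after CGRP at 8 h, without overlap. At 4 h it was 39.1% ± 6.00 and 31.2% ± 6.48, with overlap. The size of this share depends on the exon lengths used, which were 13401 bases for Pfkp and 3340 for Pfkm. Before scaling by length, Pfkp had the higher mean after PBS at 8 h (146 CPM, against 41.4 CPM for Pfkm). At 8 h the myofibre marker sum was 213 to 333 CPM after PBS and 147 to 200 CPM after CGRP, also without overlap, and its part in the Pfkm share was not tested.

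**Figure D5:**
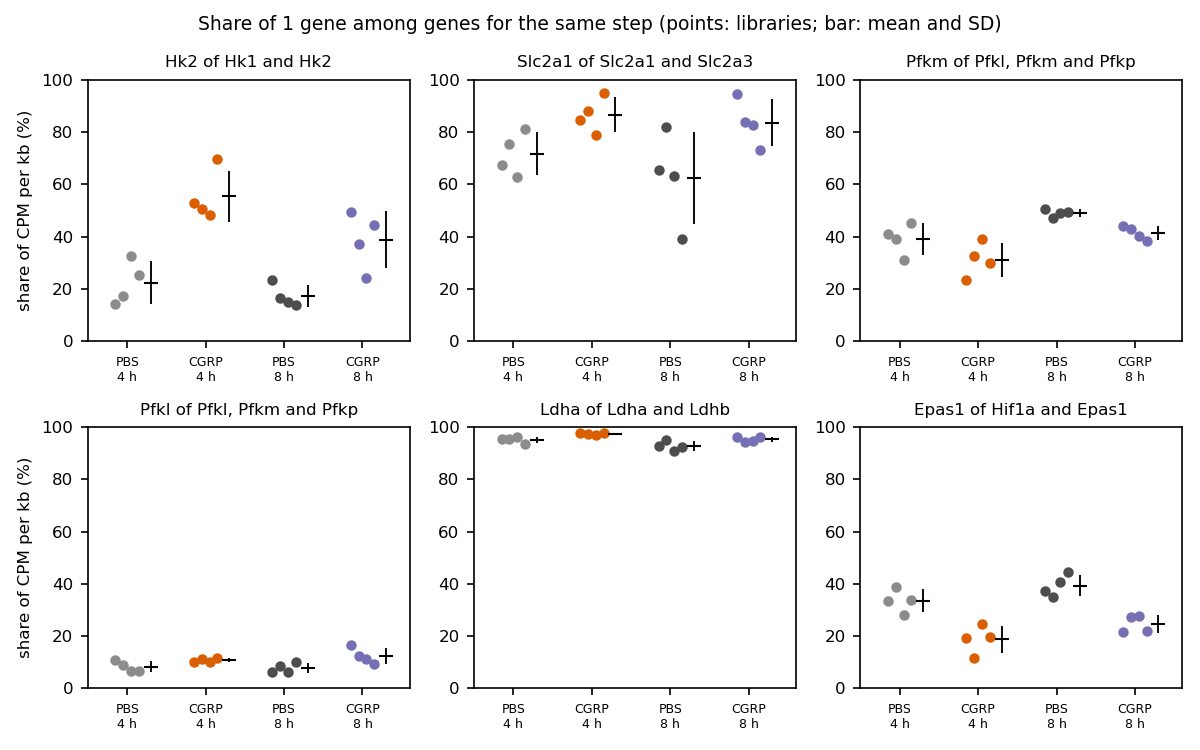
Share (%) of 1 gene in the summed CPM per kilobase of the genes named in each panel, in each library (points) with the mean and SD of each group (bars). The Hk2 share is higher and the Epas1 share lower in all CGRP libraries than in the PBS libraries of the same time.

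Pathways that branch from glycolysis and further hypoxia genes were read from 7 other lists with 107 genes in all, of which 87 were tested. At 4 h, 9 of the 87 rose and 8 fell, and at 8 h 6 rose and 2 fell, with medians of 0.02 and 0.08. Over all genes tested, 7.84% rose and 8.37% fell at 4 h, and 5% rose and 3.67% fell at 8 h, so these counts were near the background. In the pentose phosphate pathway, 2 of 8 genes rose at 4 h and 1 at 8 h. Pgd, a dehydrogenase of that pathway that makes NADPH, rose at both times (log2 fold change 0.67 ± 0.09, adjusted p = 4.75e-05, and 0.63 ± 0.09, adjusted p = 3.23e-04), and H6pd, an enzyme of the pathway's first steps in the endoplasmic reticulum, rose at 4 h (0.40). Among 14 glycogen genes, 2 rose and 2 fell at 4 h, and 3 rose and 1 fell at 8 h. Ugp2, which makes UDP-glucose, rose at both times (0.72 and 0.43), as did the phosphoglucomutase gene Pgm1 (0.58 and 0.64). Pgm2, another phosphoglucomutase, fell at 4 h (-0.55), and the glycogen branching enzyme Gbe1 rose at 8 h (0.67). Pygm, the muscle glycogen phosphorylase, was named after its values were seen, and it fell at both times (-0.69 and -0.59). The myofibre sums stand beside Pfkm above, with overlap at 4 h and none at 8 h, and their part in the fall of Pygm was not tested.

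Among 14 genes that govern the entry of pyruvate into mitochondria, 0 rose at 4 h by edgeR (0 at an unadjusted p under 0.05, and 0 by DESeq2). The pyruvate carrier subunit Mpc2 (-0.36) and the pyruvate dehydrogenase kinase Pdk2 (-0.39) fell. Pcx, which carboxylates pyruvate, rose at 4 h (0.95) and Pck2, the mitochondrial enzyme that makes phosphoenolpyruvate, fell (-0.52), out of 3 gluconeogenesis genes tested. Of 8 further glycolysis genes, the ADP-dependent glucokinase Adpgk rose (0.46) and the transporter Slc2a8 fell (-0.44) at 4 h, and Slc2a8 fell at 8 h (-0.48). Of 12 further genes of the HIF pathway edgeR called 0 at both times (1 rise and 2 falls at an unadjusted p under 0.05 at 4 h, 4 and 1 at 8 h, and 1 rise, Hsp90ab1, by DESeq2 at each time).

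Of 32 further hypoxia targets, 4 rose and 2 fell at 4 h, and 4 rose and 0 fell at 8 h by edgeR. Over all genes tested, 7.84% rose and 8.37% fell at 4 h, and 5% rose and 3.67% fell at 8 h. The median log2 fold change of these targets was 0.26 at 4 h and 0.12 at 8 h, beside -0.00 and -0.02 for all genes tested. At an unadjusted p under 0.05 there were 10 rises and 2 falls at 4 h, and 8 rises and 3 falls at 8 h. Such a p was found for 4029 of the 13949 genes tested at 4 h and for 3158 at 8 h. DESeq2 called 6 rises and 0 falls at 8 h, adding the rises of Angptl4 and Ppp1r3c. The cytokine gene Mif rose by 0.39 ± 0.13 at 4 h (log2, adjusted p = 0.0466) and by 1.12 ± 0.13 at 8 h (adjusted p = 2.55e-05). Its difference between times was 0.73 ± 0.19 (adjusted p = 0.0621). Plod2, a lysyl hydroxylase of collagen, rose at 4 h by 1.00 ± 0.15 (log2, adjusted p = 1.25e-04). At 8 h it had a log2 fold change of 0.04 (adjusted p = 0.922), and the difference between times was called (-0.96 ± 0.22, adjusted p = 0.0280). Plod2 was also higher at 8 h than at 4 h after PBS (0.75 ± 0.16, adjusted p = 0.0300). Plod1, another lysyl hydroxylase, fell at 4 h (-0.41). Further calls, named after their values were seen, were rises of the mitochondrial gene Higd1a at 4 h (0.41) and of lysyl oxidase Lox at 8 h (1.11), and a fall of the adrenomedullin gene Adm at 4 h (-1.13).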

How the data were processed

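The deposited values are raw counts of reads per gene symbol. To make them the authors aligned reads to mm10 using STAR 2.5.4 and counted with featureCounts, per the submitters' processing notes. Nothing is stated in the sources used here on the version of featureCounts, the gene annotation, strand or reads with several matches. Per the labels' protocols, oligo(dT)-primed RNA of 1000 cells was amplified by a limited PCR, made into Nextera XT libraries, which do not mark strand, and read as pairs of 25 bases. Reads carry no molecular identifiers, so PCR copies are not independent molecules.

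The counts were fitted in R 4.3.3 with the quasi-likelihood method of edgeR 4.0.16. The filterByExpr rule kept 13949 genes, TMM set the scale, and all 16 libraries entered 1 fit with a mean for each group (12 residual degrees of freedom). Tests were two-sided with Benjamini-Hochberg adjustment over the 13949 genes, and "rose" and "fell" mean an adjusted p under 0.05. The common biological coefficient of variation was 17.4%. Alternatives were DESeq2 1.42.0, RLE scaling, other filters, a replicate block, fits of 2 groups alone and leaving out libraries. The fit was tested on simulated data with known changes. For each time, 67 of the 13949 genes were changed 1.5-fold, 67 were changed 2-fold and 66 were changed 4-fold. The fit recovered 30.3% of the 1.5-fold changes at each time. Of 2-fold changes it recovered 66.7% at 4 h and 63.6% at 8 h, and of 4-fold changes 85.9% and 86.2%. False calls made up 4.8% of the calls at 4 h and 2.48% at 8 h. Far more genes were called in the data, 2262 at 4 h and 1210 at 8 h. With few changed genes the adjustment asks for a smaller p, so these rates do not measure recovery in the data. A gene that was not called may still have changed, above all by a small fold.

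Each library value is given for genes called in at least 1 comparison and, in a pathway step with none, for the gene with the highest level per kilobase. Further genes given by library were chosen after their values were seen. From each other list up to 4 called genes with the smallest p are named. The genes and lists were chosen with earlier results of these data known. Of 52997 symbols 49439 matched GENCODE M21, including all 40 listed. Near-identical copies were annotated pseudogene transcripts with at least 95% identity over 200 bases. Counts of library pairs within groups differed by far more than sampling noise (chi-square 6.52 to 22.7 times its degrees of freedom).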

Additional observations from a re-analysis of the deposited data

Results flagged for a closer look

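Among the 39 genes in 4 groups, 156 sets of 4 libraries were checked for a library set apart from its group, and 7 were found, about as many as the 1 in 20 that chance gives. Hk2 was 66.9 CPM in CGRP 4 h replicate 4, against 26.2 to 32.3 in the other 3 libraries. P4ha1 was 483 CPM in CGRP 4 h replicate 1, against 285 to 303, and Pkm was 250 CPM in that same library, against 293 to 301. Aldoa was 833 CPM in CGRP 8 h replicate 1, against 778 to 785. Slc16a3 was 1.77 CPM in CGRP 8 h replicate 3, against 2.60 to 2.73. Kdm3a was 33.9 CPM in PBS 8 h replicate 3, against 36.8 to 37.0, and Mxi1 was 19.0 CPM in PBS 4 h replicate 1, against 23.4 to 24.1. The effect of CGRP on Eno1 differed between 8 h and 4 h by 0.526 on the log2 scale in the test of the difference itself.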

How the results depend on the processing

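Of 551 values of called genes under an alternative, 464 kept the call, 87 lost it and 0 changed direction. Of 24 such gene and comparison pairs, 10 were called under every alternative. At 4 h the counts stayed at 5 to 7 rises and 2 to 3 falls under all alternatives. With 1 library left out at a time, 5 to 9 genes rose and 0 to 1 fell at 8 h. For the difference between times 0 to 1 rose, for time after PBS 0 to 1 fell, and for time after CGRP 1 to 3 rose and 1 to 3 fell. Without the 4 libraries with the most genes detected (PBS 4 h replicate 4, PBS 8 h replicates 1 and 4, CGRP 4 h replicate 3), an alternative chosen after seeing the data, 2 rose and 0 fell at 8 h. In the same alternative, 0 rose in the difference, 0 fell over time after PBS and 1 fell over time after CGRP, with fewer samples. DESeq2 called 3 rises in the difference (Aldoa, Eno1 and Tpi1) and 4 rises and 6 falls over time after CGRP. The filter of 10 reads in 4 libraries left 0 rises in the difference and 1 fall over time after CGRP. No filter gave 5 such falls, and a fit of the 2 groups alone 1 rise and 1 fall there. Except for the fits with fewer samples, the cause of these changes was not tested.

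Same-numbered libraries did not deviate together over all genes tested (correlation of deviations -0.0863 to 0.0882 over 24 pairs). What such libraries share is not stated, and a batch that moved few genes would not show in this correlation. With the replicate number as a block, 5 genes rose and 3 fell at 4 h, 7 rose and 0 fell at 8 h, and 0 rose in the difference.

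Depth limits the low genes: Slc16a3 held 410 reads, Ankrd37 333 and Egln3 263 over the 16 libraries.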
